A study of Mus musculus with 39 samples.

Results

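Cathepsins are the main proteases of the lysosome, and the 9 described here (Ctsa, Ctsb, Ctsc, Ctsd, Ctsh, Ctsk, Ctsl, Ctss and Ctsz) were chosen by gene symbol from the 24062 genes in the count files. All 9 were among the 10411 genes that passed the filter on low counts, so each was tested in every comparison. They were followed in aortic root plaque, from which regions rich in CD68 were dissected with a laser, guided by CD68 staining. The animals were female Apoe-/- mice (strain B6.129P2-Apoetm1Unc), which lack apolipoprotein E and develop atherosclerosis on a high-cholesterol diet. The diet was given for 12 weeks, treatment began at an age of 20 weeks, and 4 intravenous injections were given over 7 days, with tissue taken 24 hours after the last.

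The groups were TRAF6i-HDL (n = 10 libraries), mTORi-HDL (n = 10), S6K1i-HDL (n = 9) and PBS (n = 10). In the first 3, a high-density lipoprotein nanoparticle carried an inhibitor at 5 mg/kg against TRAF6, an adaptor of CD40 signalling, against mTOR, a kinase that controls growth, or against S6K1, a kinase downstream of mTOR. The treatment protocol calls the mTOR particle rapamycin-HDL, the S6K1 particle PF-4708671-HDL and the remaining one CD40-HDL. It also names an empty particle that no library here carries, so an effect of the drug and an effect of the carrier cannot be told apart in any comparison with PBS. The labels do not tie each library to 1 mouse, and the p-values therefore measure the spread between libraries. The comparisons address how transcripts of the CD68-rich plaque regions differ between each nanoparticle and PBS, and between the nanoparticles.

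Cathepsins are made as inactive precursors, carried to lysosomes by mannose 6-phosphate receptors and activated there at acid pH. Ctsd is an aspartic protease, Ctsb, Ctsc, Ctsh, Ctsk, Ctsl, Ctss and Ctsz are cysteine proteases of the papain family, and Ctsa is a serine carboxypeptidase that also shields β-galactosidase and neuraminidase in a complex. In plaques, macrophages release several of them, and Ctss, Ctsk and Ctsl can cut elastin and collagen of the arterial wall. Transcription of many lysosomal genes is driven by TFEB and TFE3, factors that mTOR signalling holds in the cytoplasm.

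Counts in genes ranged from 50091 to 6833491 per library, with medians of 2048300 in TRAF6i-HDL, 3142570 in mTORi-HDL, 4742540 in S6K1i-HDL and 1340380 in PBS. There were 3 libraries under 200000 counts, namely TRAF6i-HDL replicate 7 (66602), S6K1i-HDL replicate 1 (118527) and PBS replicate 9 (50091), and results are also given without them. Rn45s, the precursor of ribosomal RNA, took a median percentage of counts of 15.9% in TRAF6i-HDL, 25.6% in mTORi-HDL, 41.8% in S6K1i-HDL and 7.49% in PBS. Macrophage markers were present in every group, with 12 of 13 listed genes in the files and median summed levels of 8257, 7389 and 7481 CPM (counts scaled to library size) in TRAF6i-HDL, mTORi-HDL and S6K1i-HDL, against 7905 CPM in PBS. Adipocyte markers summed to at most 1.76 CPM in any library. Of 5 listed erythroid genes, the 4 haemoglobin genes were at 0 in all 4 groups, and the remaining 1 was detected in every group. Its highest levels were 14.02, 15.66 and 15.72 CPM in TRAF6i-HDL, mTORi-HDL and S6K1i-HDL, against 15.02 CPM in PBS. Reads with several alignments are not among the counts in genes, and whether this bears on the values at 0 was not tested. Whether the tissue held blood was not tested either. Smooth muscle markers had median sums of 342, 403 and 484 CPM in TRAF6i-HDL, mTORi-HDL and S6K1i-HDL, against 256 CPM in PBS. Fibroblast markers were higher, with median sums of 1725, 1330 and 1851 CPM in the same order, against 1780 CPM in PBS. Endothelial markers had median sums of 411, 519 and 323 CPM, against 364 CPM in PBS. A lower transcript level in such bulk tissue cannot be told apart from fewer cells of the type that makes it.

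Levels of the family spanned about 2 orders of size. Per kilobase of transcript (the longest RefSeq-matched coding transcript in GENCODE vM21), median levels over the 39 libraries were 3593 CPM for Ctss, 2532 for Ctsl, 2223 for Ctsd and 1653 for Ctsb. The other 5 had median levels per kilobase of 236 CPM for Ctsz, 87.9 for Ctsh, 75.1 for Ctsa, 47.0 for Ctsc and 41.5 for Ctsk. Ctsb was above Ctsz in 39 of 39 libraries, and Ctsz was above Ctsh in 39 of 39. The order within the top 4 was not fixed, since Ctss exceeded Ctsl in 26 of 39 libraries, Ctsl exceeded Ctsd in 21 and Ctsd exceeded Ctsb in 26. Among the lower 4, Ctsh exceeded Ctsa in 24 of 39 libraries, Ctsa exceeded Ctsc in 32 and Ctsc exceeded Ctsk in 26. Together the 9 genes held a median of 3.23% of counts in TRAF6i-HDL, 2.02% in mTORi-HDL, 1.80% in S6K1i-HDL and 4.57% in PBS. With Rn45s left out of the totals the medians were 3.70%, 2.77% and 2.77% in the inhibitor groups in that order, against 4.89% in PBS.

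**Figure D1:**
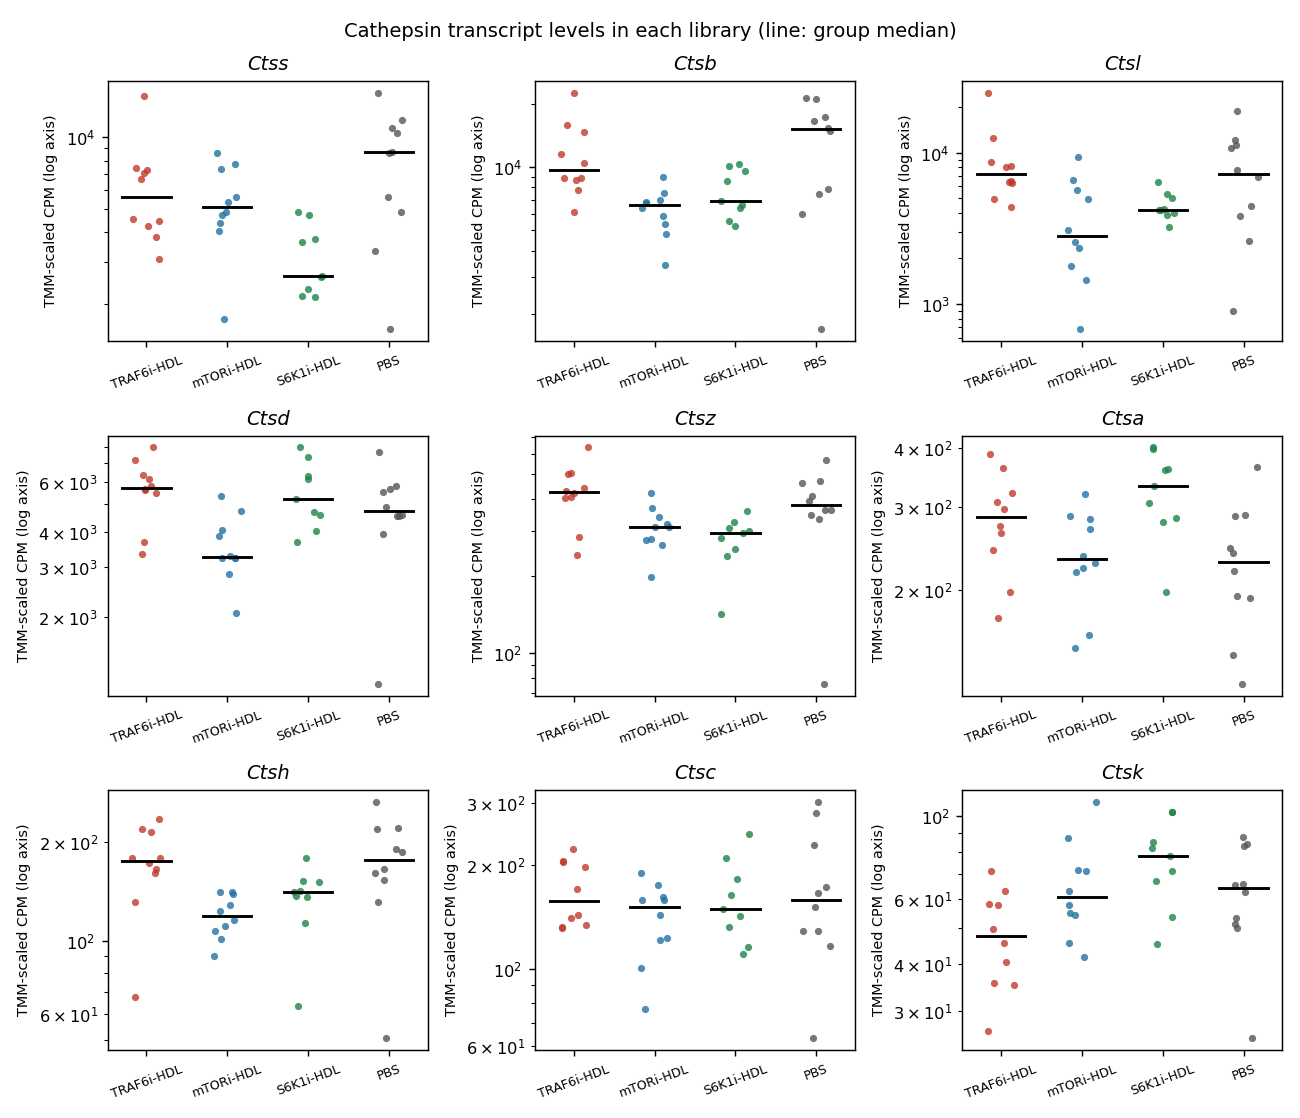
Levels of the 9 cathepsins in each of the 39 libraries, as CPM scaled by TMM factors on log axes, in TRAF6i-HDL (n = 10), mTORi-HDL (n = 10), S6K1i-HDL (n = 9) and PBS (n = 10). Points are libraries and lines are group medians. The S6K1i-HDL values of Ctss sit between 2143 and 4882 CPM, below 8 of the 10 PBS values, the lowest of these at 4884 CPM (replicate 7). The lowest PBS value of every panel is replicate 9.

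Promoters are shown for Ctsd and Ctsa, the members with 2 matches each to CACGTG, and for Ctss, the member with the largest called difference from PBS. RefSeq sequences of GRCm38.p6 covered 7 of the 9 members, each from 250 bases before the transcript start to 50 after it, written 5′ to 3′ on the gene's strand. Capitals mark CACGTG in Ctsd and Ctsa, the core of the element that TFEB and TFE3 bind, and in Ctss GAGGAA, a core read by the macrophage factor PU.1, and the interferon-stimulated response core, which is GAAA, 2 bases of any kind and GAAA. All were searched on both strands, so GAGGAA may appear as TTCCTC.
Ctsd: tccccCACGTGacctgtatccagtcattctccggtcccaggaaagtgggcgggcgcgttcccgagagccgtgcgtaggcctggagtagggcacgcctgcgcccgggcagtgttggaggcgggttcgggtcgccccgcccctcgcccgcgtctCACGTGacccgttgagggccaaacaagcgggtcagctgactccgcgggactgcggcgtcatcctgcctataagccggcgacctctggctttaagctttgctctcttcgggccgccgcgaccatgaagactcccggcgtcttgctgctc
Ctsa: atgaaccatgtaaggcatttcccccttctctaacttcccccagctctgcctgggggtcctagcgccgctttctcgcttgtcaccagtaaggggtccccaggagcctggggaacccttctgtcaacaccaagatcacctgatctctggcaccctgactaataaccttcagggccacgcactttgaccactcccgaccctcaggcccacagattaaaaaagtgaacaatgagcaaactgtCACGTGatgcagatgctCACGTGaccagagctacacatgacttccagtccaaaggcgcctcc
Ctss: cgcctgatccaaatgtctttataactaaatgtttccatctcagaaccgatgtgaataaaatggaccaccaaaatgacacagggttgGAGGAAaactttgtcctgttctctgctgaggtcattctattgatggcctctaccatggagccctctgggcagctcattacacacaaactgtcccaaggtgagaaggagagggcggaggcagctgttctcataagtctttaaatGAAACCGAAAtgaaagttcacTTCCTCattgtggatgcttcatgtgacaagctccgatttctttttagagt

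The Ctsd promoter lies at chr7:142387778-142388077 on the minus strand, the Ctsa promoter (the second of 2 listed) at chr2:164833523-164833822 on the plus strand and the Ctss promoter at chr3:95526536-95526835 on the plus strand. CACGTG occurred in 7.15% of 32851 promoters of the same length, and among the members in Ctsd and Ctsa, at 2 places each, and in Ctsl at 1 place. Its 8-base form TCACGTGA, which contains it, occurred in 0.974% of promoters, with 1 match in Ctsd, at position -99 from the start, and 2 in Ctsa, at -13 and 4. The first listed Ctsa promoter and the Ctsz promoter had no match to either form. Across libraries, Pearson's r of Ctsd was 0.75 with Ctsz and 0.67 with Ctsa, while Spearman's rho was 0.61 and 0.67 in that order. Whether the matches have a part in these values was not tested. GAGGAA is common, in 28.3% of promoters, and was found at 2 places each in Ctss, Ctsk and Ctsc. The interferon-stimulated response core was found in 3.44% of promoters and among the members in Ctss alone, at -21. TGANTCA, read by AP-1 factors and present in 7.81% of promoters, was in none of the members' windows, and TATAAA, in 13.6%, was in Ctss alone, at -233. A match of letters shows neither binding nor use of a site.

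Under mTORi-HDL, Ctsb and Ctsh fell relative to PBS, and the other 7 members were not called. The median log2 fold change of the 9 was -0.43, against 0.01 for all tested genes, and 8 of 9 values were below 0. A call is an adjusted p under 0.05 in edgeR's quasi-likelihood test with Benjamini-Hochberg adjustment over all 10411 genes. In this comparison 1.64% of all genes were called, 1.02% lower and 0.624% higher. At an unadjusted p under 0.05, 7 of 9 members were lower and 0 higher, where 8.46% of all genes were lower and 9.12% higher.

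Ctsb, a cysteine endopeptidase and carboxydipeptidase with broad substrates, had a lowest, median and highest level of 3435, 6571 and 8997 CPM in mTORi-HDL, against 1694, 15098 and 21340 CPM in PBS. The ranges overlap, but all 10 mTORi-HDL libraries lay below the PBS mean, and 6 of 10 PBS libraries lay above every mTORi-HDL value. The log2 fold change was -1.04 ± 0.26 (SE) with an edgeR adjusted p of 0.0239, and -1.16 ± 0.22 (adjusted p = 0.00222) without the 3 shallow libraries. The call was lost without mTORi-HDL replicate 8 (adjusted p = 0.0575) or without PBS replicate 3, 4, 5 or 6 (0.0750, 0.0735, 0.0558 and 0.0657), without the filter on low counts (-1.01, adjusted p = 0.0591), with a replicate block (-0.97, 0.0532), with the mTORi-HDL and PBS libraries fitted alone (-1.05, 0.0654), and with the log2 share of Rn45s in the model (-0.35 ± 0.22, 0.643).

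Ctsh, an aminopeptidase, ranged less. Its lowest, median and highest levels were 90.2, 120 and 141 CPM in mTORi-HDL, against 50.6, 176 and 266 CPM in PBS. All 10 mTORi-HDL libraries were below the PBS mean, and the 1 PBS library below all of them was replicate 9, which held 4 reads of Ctsh. The log2 fold change was -0.59 ± 0.15 (edgeR adjusted p = 0.0235), or -0.63 ± 0.12 (adjusted p = 0.00294) without the shallow libraries. The call was lost without mTORi-HDL replicate 3 or 8 (adjusted p = 0.0502 and 0.0571), without PBS replicate 2, 3, 4, 5 or 6 (0.0613, 0.0764, 0.0689, 0.0558 and 0.0653), and with the Rn45s covariate (-0.41 ± 0.15, adjusted p = 0.294).

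The other members were not called under mTORi-HDL. Ctsl, an endopeptidase that cuts elastin and collagen, had the largest difference in size, with a lowest, median and highest level of 681, 2823 and 9371 CPM in mTORi-HDL, against 897, 7283 and 18915 CPM in PBS (log2 fold change -1.05 ± 0.40, edgeR adjusted p = 0.149). Its spread between libraries was the widest of the family in both groups, with coefficients of variation of 71.0% in mTORi-HDL and 68.3% in PBS. Values between -0.33 and -0.58 were found for Ctss (-0.58 ± 0.28), Ctsd (-0.43 ± 0.20), Ctsc (-0.36 ± 0.17) and Ctsz (-0.33 ± 0.16), with edgeR adjusted p-values of 0.274, 0.252, 0.261 and 0.273 in that order. Ctsa (0.01 ± 0.15) and Ctsk (-0.00 ± 0.17) were near 0. Of 12 tested macrophage markers, Itgam was higher (0.71, edgeR adjusted p = 0.00718) and Aif1 lower (-1.01, adjusted p = 0.00931) under mTORi-HDL, and Cd68, which guided the capture, was at -0.50 ± 0.17 (adjusted p = 0.109). The part of these markers, or of the Rn45s share, in the cathepsin values was not tested beyond the covariate fit.

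Under S6K1i-HDL, Ctss was lower and Ctsa higher than in PBS, and the other members were not called. In this comparison 11.9% of all genes were called, 6.47% lower and 5.46% higher. Beside this, 2 of the 9 members were called, 1 lower and 1 higher, which is near that background. The median log2 fold change of the 9 was -0.37, against 0.00 for all tested genes, and 6 of 9 values were below 0. At an unadjusted p under 0.05, 5 members were lower and 1 higher, where 13.9% and 13.2% of all genes were.

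Ctss, the elastin-cutting protease that also trims the invariant chain in antigen-presenting cells, had a lowest, median and highest level of 2143, 2617 and 4882 CPM in S6K1i-HDL, against 1567, 8655 and 15379 CPM in PBS. All 9 S6K1i-HDL libraries were below the PBS mean, and 8 of 10 PBS libraries lay above every S6K1i-HDL value but replicates 8 and 9 did not. Of these 8, PBS replicate 7 was at 4884 CPM, level with the highest S6K1i-HDL value, and replicate 10 at 5626 CPM. PBS replicates 1 to 6, with Rn45s shares of 7.89% or less, were at 8627 CPM or more. The log2 fold change was -1.34 ± 0.30, a level 0.394 times that of PBS, with an edgeR adjusted p of 0.00322. The call held with any 1 of the 39 libraries left out (adjusted p from 0.000633 to 0.0110) and without the 3 shallow ones (-1.40 ± 0.28, adjusted p = 0.00175). In the model that holds the Rn45s share, the value was -0.18 ± 0.24 (adjusted p = 0.843).

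Ctsa had a lowest, median and highest level of 198, 332 and 402 CPM in S6K1i-HDL, against 126, 230 and 365 CPM in PBS. The groups overlap widely, although 8 of 9 S6K1i-HDL libraries were above the PBS mean, and the exception was the shallow replicate 1. The log2 fold change was 0.48 ± 0.16 (edgeR adjusted p = 0.0375), or 0.49 ± 0.15 (adjusted p = 0.0290) without the shallow libraries. The call was lost without S6K1i-HDL replicate 2, 3, 4, 5, 6 or 8 (adjusted p = 0.0570, 0.0671, 0.0740, 0.0742, 0.0768 and 0.0833) or PBS replicate 1, 2, 3, 4, 6 or 9 (0.0816, 0.0644, 0.0694, 0.0504, 0.0572 and 0.0540), with detected genes in the model (0.27, adjusted p = 0.295), and with the Rn45s covariate (0.01 ± 0.16, adjusted p = 0.996).

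Ctsb, Ctsz and Ctsh missed the threshold under S6K1i-HDL with all libraries and passed it without the 3 shallow ones. Ctsb had a lowest, median and highest level of 5226, 6903 and 10282 CPM in S6K1i-HDL, against 1694, 15098 and 21340 CPM in PBS (log2 fold change -0.75 ± 0.27, edgeR adjusted p = 0.0564). Ctsz, a carboxypeptidase, had 142, 294 and 360 CPM in S6K1i-HDL, against 75.8, 378 and 570 CPM in PBS (-0.46 ± 0.17, adjusted p = 0.0631 by edgeR). Ctsh had 63.3, 141 and 179 CPM in S6K1i-HDL, against 50.6, 176 and 266 CPM in PBS (-0.37 ± 0.15, adjusted p = 0.0962 by edgeR). Without the shallow libraries the values were -0.82 ± 0.23, -0.48 ± 0.14 and -0.37 ± 0.13 for Ctsb, Ctsz and Ctsh, with edgeR adjusted p-values of 0.0158, 0.0189 and 0.0473, which makes 5 of 9 members called, 4 lower and 1 higher, in a fit that called 11.9% of all genes. With the Rn45s covariate no member was called by edgeR, and Ctsb was at 0.27 ± 0.25 (adjusted p = 0.745), Ctsz at -0.66 ± 0.19 (0.102) and Ctsh at -0.095 ± 0.17 (0.896). Leaving out PBS replicate 9 alone was enough for these 3 calls (adjusted p = 0.0102, 0.0143 and 0.0454), while Ctsa was then lost. Ctsb was also called without PBS replicate 7, 8 or 10 (0.0433, 0.0344 and 0.0402), S6K1i-HDL replicate 7 or 9 (0.0477 and 0.0425) or TRAF6i-HDL replicate 8 (0.0444).

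The remaining members were not called under S6K1i-HDL. Ctsl was at -0.82 ± 0.41 (edgeR adjusted p = 0.183), with all 9 S6K1i-HDL libraries below the PBS mean. Ctsd had a lowest, median and highest level of 3687, 5229 and 7948 CPM in S6K1i-HDL, against 1163, 4732 and 7678 CPM in PBS, and its log2 fold change of 0.20 ± 0.21 had a 95% interval from -0.21 to 0.61. Ctsk (0.23 ± 0.17) and Ctsc (-0.20 ± 0.18) also had intervals that included 0. Of 12 tested macrophage markers Cd14 was lower (-0.75, adjusted p = 0.0132 by edgeR), and Cd68 was at 0.10 ± 0.18. Smooth muscle markers had 1 of 5 tested genes higher and fibroblast markers 1 of 3 lower. The part of these in the cathepsin values was not tested.

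Under TRAF6i-HDL no member was called by edgeR, in a comparison where 0.0192% of all genes were, 0.00961% lower and 0.00961% higher. At an unadjusted p under 0.05, 1 of 9 members was lower (Ctsk) and 0 higher, where 4.92% of all genes were lower and 6.2% higher, and the DESeq2 Wald test called 0 members. The median log2 fold change of the 9 was -0.03, against 0.00 for all tested genes. Ctsk, the collagen-cutting cathepsin best known from osteoclasts, had a lowest, median and highest level of 26.4, 47.7 and 71.3 CPM in TRAF6i-HDL, against 25.3, 64.1 and 88.0 CPM in PBS (-0.45 ± 0.18, edgeR adjusted p = 0.327). Ctsa was at 0.29 ± 0.15 (adjusted p = 0.495), with 8 of 10 TRAF6i-HDL libraries above the PBS mean. Ctss was at -0.36 ± 0.28, with a 95% interval from -0.91 to 0.20 and 9 of 10 libraries below the PBS mean. Ctsl was at 0.19 ± 0.39, with a 95% interval from -0.58 to 0.95. All 12 tested macrophage markers were uncalled in the same comparison.

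**Figure D2:**
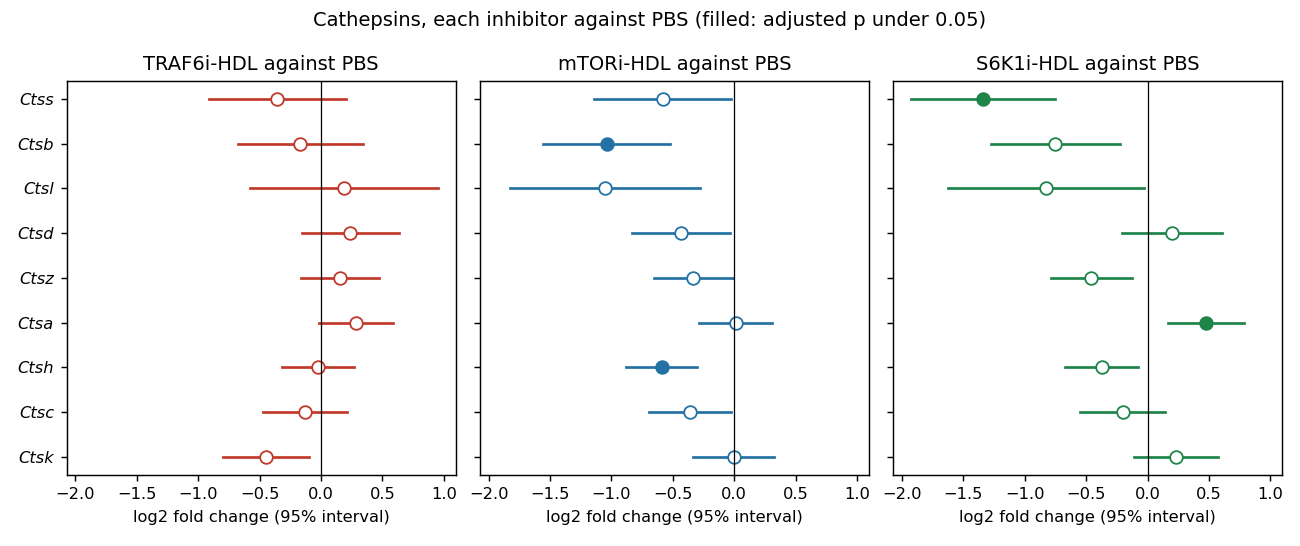
Log2 fold change of each cathepsin in TRAF6i-HDL, mTORi-HDL and S6K1i-HDL, each against PBS, from the edgeR fit of all 39 libraries. Lines are 95% intervals and filled points passed an adjusted p under 0.05; these are Ctsb and Ctsh under mTORi-HDL and Ctss and Ctsa under S6K1i-HDL, and all 3 panels share the 10 PBS libraries.

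Against mTORi-HDL, TRAF6i-HDL had 8 of 9 members at a log2 fold change above 0, with a median of 0.49 against 0.00 for all tested genes. Ctsh was higher in TRAF6i-HDL, with a lowest, median and highest level of 67.7, 176 and 235 CPM in TRAF6i-HDL, against 90.2, 120 and 141 CPM in mTORi-HDL (0.56 ± 0.15, edgeR adjusted p = 0.0223, in a comparison that called 2.92% of all genes, 1.36% lower and 1.56% higher). Of the 10 TRAF6i-HDL libraries, 8 lay above the highest mTORi-HDL value and 1, the shallow replicate 7, below the lowest. This was the 1 member called in this comparison. The call was lost without TRAF6i-HDL replicate 3 or 5 (adjusted p = 0.0549 and 0.0686) and against mTORi-HDL replicates 1 to 4 or 5 to 10 taken alone (0.58, adjusted p = 0.175, and 0.55, 0.0629), and it held with the Rn45s covariate (0.50 ± 0.13, adjusted p = 0.0178). Without the 3 shallow libraries 4 members were called, where 3.17% of all genes were, with Ctsb (0.94 ± 0.22), Ctsd (0.73 ± 0.17) and Ctsz (0.53 ± 0.13) also higher. For Ctsd, 8 of 10 TRAF6i-HDL libraries lay above every mTORi-HDL library, with lowest, median and highest levels of 3339, 5728 and 7947 CPM in TRAF6i-HDL, against 2069, 3266 and 5339 CPM in mTORi-HDL (0.67 ± 0.20, edgeR adjusted p = 0.0540 in all 39 libraries). Leaving out single libraries also made calls, for Ctsb without TRAF6i-HDL replicate 7 or 9, mTORi-HDL replicate 5 or PBS replicate 3, 8 or 9 (adjusted p from 0.0177 to 0.0483), for Ctsd without TRAF6i-HDL replicate 1 or 7, mTORi-HDL replicate 2 or PBS replicate 9 (0.0202 to 0.0478), for Ctsl without mTORi-HDL replicate 1 (0.0356) and for Ctsz without PBS replicate 9 (0.0441).

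TRAF6i-HDL against S6K1i-HDL gave 2 called members, where 1.59% of all genes were called, 0.394% lower and 1.2% higher. Ctsk was lower, at 26.4, 47.7 and 71.3 CPM (lowest, median and highest) in TRAF6i-HDL, against 45.3, 78.2 and 103 CPM in S6K1i-HDL, with all 10 TRAF6i-HDL libraries below the S6K1i-HDL mean (-0.68 ± 0.18, edgeR adjusted p = 0.0307). Ctsz was higher, at 242, 425 and 637 CPM in TRAF6i-HDL, against 142, 294 and 360 CPM in S6K1i-HDL, and 8 of 10 TRAF6i-HDL libraries exceeded every S6K1i-HDL one (0.61 ± 0.17, adjusted p = 0.0415 by edgeR). Both calls held without the shallow libraries (adjusted p = 0.0388 for Ctsk and 0.0190 for Ctsz, where 1.6% of all genes were called) and both depended on single libraries. The Ctsk call was lost without TRAF6i-HDL replicate 2, 5, 6 or 8 (adjusted p = 0.0577, 0.0501, 0.0563 and 0.0633) or S6K1i-HDL replicate 2, 4, 5, 6 or 8 (0.0538, 0.0828, 0.0530, 0.0555 and 0.0739), and with detected genes in the model (0.0578). The Ctsz call was lost in 18 of 39 such fits, without TRAF6i-HDL replicate 1, 2, 3, 5, 6 or 10 (0.0565, 0.0765, 0.0683, 0.0604, 0.108 and 0.0660), mTORi-HDL replicate 4 (0.0503), S6K1i-HDL replicates 1 to 7 each in turn (0.0597 to 0.0837) or PBS replicate 2, 5, 6 or 7 (0.0528, 0.0528, 0.0541 and 0.0506). It was also lost without the filter (0.0561), with the replicate block (0.0779), and against S6K1i-HDL replicates 1 to 6 (0.64, adjusted p = 0.0546) or 7 to 9 (0.56, 0.602) taken alone. The Ctsk call was lost against replicates 7 to 9 (-0.75, 0.389). Ctss was at 0.99 ± 0.30 in TRAF6i-HDL against S6K1i-HDL (adjusted p = 0.0676) and Ctsl at 1.01 ± 0.41 (adjusted p = 0.198), neither called by edgeR, although Ctss was called without TRAF6i-HDL replicate 4, mTORi-HDL replicate 8, S6K1i-HDL replicate 9 or PBS replicate 9 (0.0390 to 0.0498). With the Rn45s covariate Ctss was at 0.26 ± 0.21 (edgeR adjusted p = 0.670) and Ctsl at 0.34 ± 0.41 (0.810).

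mTORi-HDL against S6K1i-HDL, the pair of inhibitors of the same signalling axis, gave 0 called members by edgeR, where 6.18% of all genes were called, 2.68% lower and 3.5% higher. At an unadjusted p under 0.05, 2 members were lower (Ctsa and Ctsd) and 1 higher (Ctss), where 9.85% of all genes were lower and 11% higher, and the DESeq2 Wald test called 2. Ctsd was at -0.63 ± 0.21 (adjusted p = 0.0552), with all 10 mTORi-HDL libraries below the S6K1i-HDL mean and 6 below its lowest library. Ctsa was at -0.47 ± 0.15 (adjusted p = 0.0564), with 10 of 10 below the S6K1i-HDL mean. Without the shallow libraries, where 6.45% of all genes were called, both were called lower in mTORi-HDL (Ctsd -0.65 ± 0.17, edgeR adjusted p = 0.0133, and Ctsa -0.51 ± 0.15, adjusted p = 0.0259). Single libraries also decided these, Ctsd being called without mTORi-HDL replicate 2 or 6, S6K1i-HDL replicate 7 or 9 or PBS replicate 9 (0.0209 to 0.0499), and Ctsa without TRAF6i-HDL replicate 8, mTORi-HDL replicate 2 or S6K1i-HDL replicate 1 (0.0336 to 0.0471). Ctss was at 0.76 ± 0.29 (adjusted p = 0.115 by edgeR), with 9 of 10 mTORi-HDL libraries above the S6K1i-HDL mean.

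The make-up of the family does not depend on the scaling between libraries. Ctss held a share of 18.4% ± 3.81, 26.8% ± 5.81 and 14.4% ± 3.07 of the counts in the 9 cathepsins in TRAF6i-HDL, mTORi-HDL and S6K1i-HDL (SD, n = 10, 10 and 9), against 23.4% ± 3.32 in PBS (SD, n = 10). The S6K1i-HDL and mTORi-HDL ranges of Ctss do not overlap. Ctsd held a median of 27.2% in S6K1i-HDL, 19.1% in mTORi-HDL and 18.2% in TRAF6i-HDL, against 12.7% in PBS, and Ctsl held 26.5% in TRAF6i-HDL, 19.6% in S6K1i-HDL and 13.4% in mTORi-HDL, against 19.5% in PBS. Ctsb had medians of 31.8%, 31.1% and 33.5% in TRAF6i-HDL, mTORi-HDL and S6K1i-HDL, against 35.8% in PBS. These shares are descriptions without a test, and since they sum to a whole, a lower share of Ctss raises the others.

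The level of several members moved with the Rn45s share of counts across the 39 libraries. Only the 9 members were examined in this way, and how many of all genes move with this share was not computed. The relation is therefore not shown to be particular to cathepsins. The relation was negative for Ctss (Pearson's r = -0.81, Spearman's rho = -0.83), Ctsb (r = -0.67, rho = -0.65), Ctsl (r = -0.49, rho = -0.49), Ctsh (r = -0.41, rho = -0.42) and Ctsc (r = -0.38, rho = -0.31), and positive for Ctsa (r = 0.63, rho = 0.65). In permutation tests adjusted over the 9 members, r had an adjusted p of 3e-05 for Ctss, Ctsb and Ctsa, 0.00364 for Ctsl, 0.0184 for Ctsh and 0.0284 for Ctsc, and rho had 4.5e-05, 4.5e-05, 9e-05, 0.00371, 0.0137 and 0.0868 in the same order. No relation was detected for Ctsd (r = 0.09, rho = 0.22), Ctsk (r = 0.10, rho = 0.07) or Ctsz (r = -0.09, rho = -0.17), with adjusted permutation p-values for r of 0.594 each and for rho of 0.232, 0.687 and 0.338. Without the 2 libraries farthest from the median share, r was -0.77 for Ctss, -0.60 for Ctsb, 0.57 for Ctsa, -0.43 for Ctsl, -0.34 for Ctsh and -0.19 for Ctsc.

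Within groups the relation held its sign for these 6 members but not its size. For Ctss, r was -0.85, -0.64 and -0.70 within TRAF6i-HDL, mTORi-HDL and S6K1i-HDL, against -0.75 within PBS. For Ctsb the values were -0.75, -0.64 and -0.61, against -0.67 within PBS, and for Ctsa 0.70, 0.66 and 0.40, against 0.56 within PBS. Ctsl had r = -0.07 within mTORi-HDL and -0.08 within S6K1i-HDL, Ctsh had -0.07 and -0.09 in the same groups, and Ctsc had -0.07 within mTORi-HDL, so for these 3 the relation did not hold in every group. PBS replicates 7, 8 and 10, with Rn45s shares of 29.2%, 30.0% and 24.0%, had Ctsb levels of 7417, 5959 and 7838 CPM, within the S6K1i-HDL range, while the other PBS libraries of over 200000 counts had Rn45s shares of 7.89% or less and Ctsb levels of at least 14847 CPM. A gene whose level follows the Rn45s share and a gene that responds to S6K1i-HDL cannot be told apart where the groups differ in that share. The calls for Ctsh between TRAF6i-HDL and mTORi-HDL and for Ctsz between TRAF6i-HDL and S6K1i-HDL held with this covariate, that for Ctsz at 0.72 ± 0.17 (edgeR adjusted p = 0.0467), while that for Ctsk between TRAF6i-HDL and S6K1i-HDL was at -0.74 ± 0.18 (adjusted p = 0.0536).

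**Figure D3:**
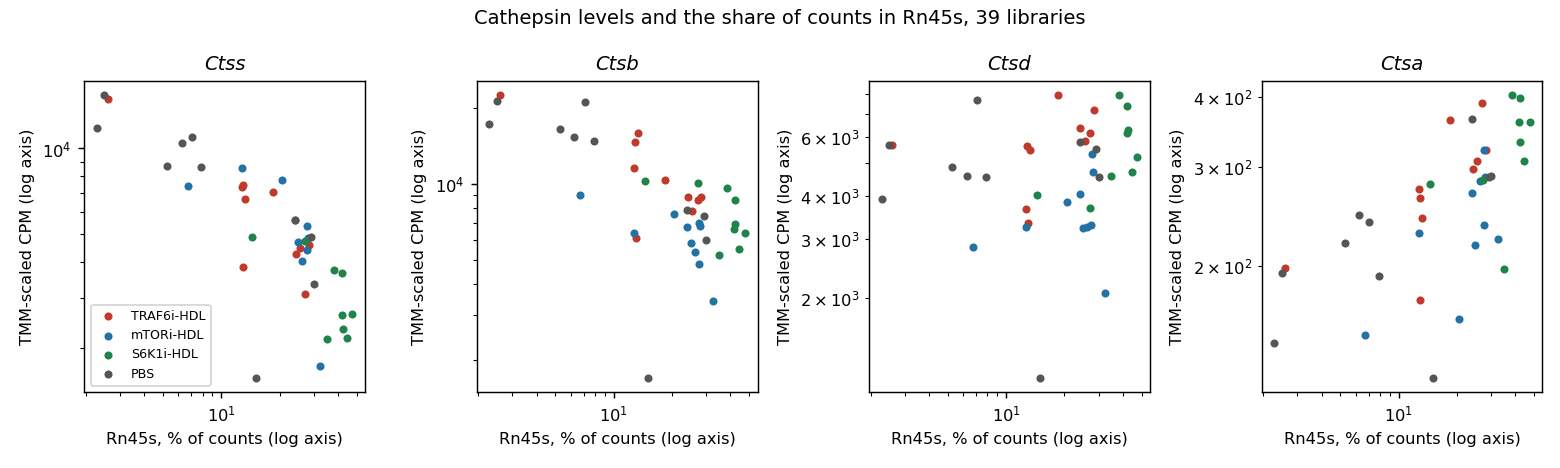
Level of Ctss, Ctsb, Ctsd and Ctsa (TMM-scaled CPM) against the percentage of counts in Rn45s, both on log axes, in 39 libraries coloured by group. Ctss (r = -0.81) and Ctsb (r = -0.67) fall along the axis, Ctsa climbs (r = 0.63) and Ctsd (r = 0.09) shows no slope.

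The members formed overlapping sets across libraries rather than 1 block. Of 36 pairs, 18 had a Pearson's r over 0.5 and 19 an adjusted permutation p under 0.05 for r (adjusted over the 36). The share of pairs among all genes that reach these limits was not computed. These counts therefore do not show a trait particular to cathepsins. The highest were Ctsb with Ctsh (r = 0.85, rho = 0.86), with Ctss (r = 0.83, rho = 0.77) and with Ctsl (r = 0.83, rho = 0.75), where adjusted permutation p-values were 6e-05 for r and 9e-05 for rho. Ctsd went with Ctsz (r = 0.75, rho = 0.61, adjusted p = 8e-05 and 0.00028) and with Ctsa (r = 0.67, rho = 0.67, adjusted p = 8e-05 and 9e-05). Ctsd and Ctsa kept r = 0.57 in the 36 libraries over 200000 counts and r = 0.59 without the 2 libraries farthest on the axis of Ctsa, and r was 0.68, 0.49 and 0.72 within TRAF6i-HDL, mTORi-HDL and S6K1i-HDL, against 0.69 within PBS.

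Ctsa and Ctss had a negative relation over all libraries by rank only (r = -0.28, rho = -0.40, adjusted permutation p = 0.123 and 0.0246), with r = -0.61 in the 36 deeper libraries, r = -0.43 without the 2 farthest ones and r = -0.10 once group means were subtracted. Within groups the sign differed, with r = -0.39, -0.30 and 0.18 within TRAF6i-HDL, mTORi-HDL and S6K1i-HDL, against 0.08 within PBS. Ctsk had r between 0.07 and 0.22 with each of the other 8, and between 0.08 and 0.51 once group means were subtracted. In the 36 deeper libraries its r was between -0.17 and 0.06. The groups differed: r of Ctsk lay between -0.44 and 0.13 within TRAF6i-HDL, -0.40 and 0.70 within mTORi-HDL, and 0.01 and 0.39 within S6K1i-HDL. Within PBS it lay between 0.27 and 0.90, in a group where replicate 9 held 2 reads of Ctsk. Leaving out the 2 farthest libraries left r at 0.80 for Ctsb with Ctsh, 0.79 for Ctsb with Ctss, 0.76 for Ctsb with Ctsl and 0.53 for Ctsd with Ctsz. Ctsb with Ctss had r = 0.89, 0.88 and 0.96 within TRAF6i-HDL, mTORi-HDL and S6K1i-HDL, against 0.98 within PBS.

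**Figure D4:**
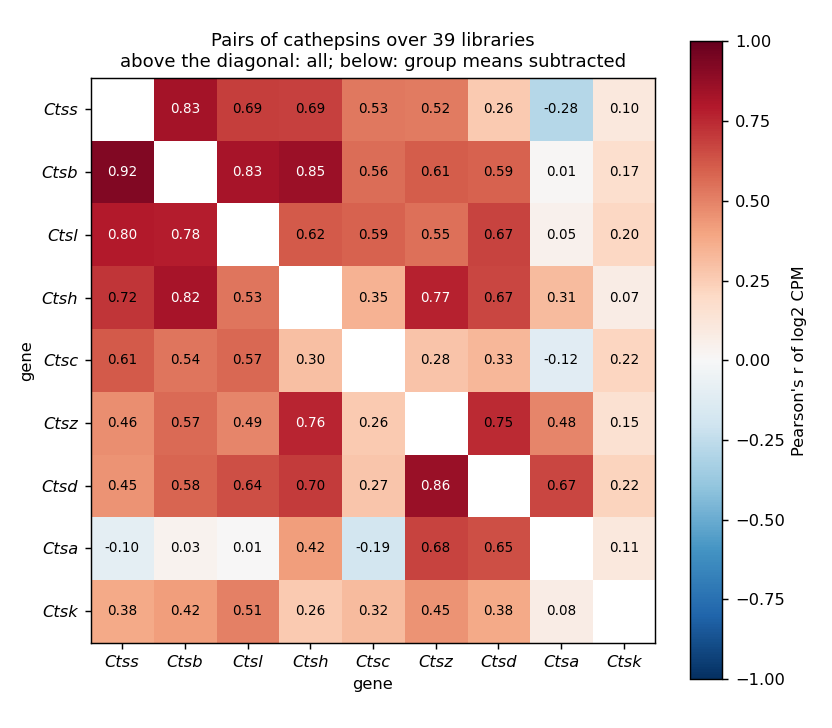
Pearson's r between the log2 CPM of each pair of cathepsins over 39 libraries, with group means left in above the diagonal and subtracted below it. Ctss, Ctsb, Ctsl and Ctsh form a block of high values, up to 0.92 for Ctsb with Ctss after subtraction, Ctsz with Ctsd reaches 0.86 after subtraction, and Ctsk is pale above the diagonal, between 0.07 and 0.22.

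For each member the 3 most similar of 7629 genes (those averaging 3 or more on the log2 CPM scale) were taken by Pearson's r over the 39 libraries, as a description. Ctsb was closest to the class I molecule H2-D1 (r = 0.93), the galectin Lgals3 (r = 0.93) and the Fc receptor chain Fcer1g (r = 0.92). Ctsh was closest to Trem2 (r = 0.90), a lipid receptor of foamy macrophages, Mpeg1 (r = 0.89) and Fcer1g (r = 0.87). Ctsd was closest to Gpnmb (r = 0.90), a glycoprotein of lipid-laden macrophages, the lysosomal protein Pld3 (r = 0.87) and Laptm5 (r = 0.87). Ctsz was closest to ferritin light chain Ftl1 (r = 0.88), Cd300a (r = 0.81) and Acss1 (r = 0.81), and Ctsl was close to Itm2b (r = 0.85) and Cd5l (r = 0.85).

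Ctss was closest to Ywhah (r = 0.93), the lysozyme gene Lyz1 (r = 0.91) and Ghitm (r = 0.90), and Ctsc to the scavenger receptor Msr1 (r = 0.76), Ube2v2 (r = 0.75) and Ifi44 (r = 0.72). Ctsa was closest to the aminopeptidase Anpep (r = 0.88), Tmem106a (r = 0.84) and the lysosome-tethering gene Plekhm1 (r = 0.81). Ctsk had the weakest likenesses, to Mtpn (r = 0.72), Shc1 (r = 0.67) and Eya4 (r = 0.65). In the 36 deeper libraries r fell to 0.52 for Ctsz with Acss1 and 0.60 for Ctsz with Cd300a, and was between 0.56 and 0.94 for the other pairs named here. These values share library depth and the Rn45s share, and no p was attached.

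Of 14 other cathepsin genes, 2 passed the filter and 0 were called by edgeR in any comparison with PBS, also 0 at an unadjusted p under 0.05. The more abundant was Ctso, at 45.6 ± 17.9, 40.0 ± 6.60 and 40.1 ± 6.16 CPM in TRAF6i-HDL, mTORi-HDL and S6K1i-HDL, against 42.6 ± 12.2 CPM in PBS (SD, n = 10, 10, 9 and 10). None of the 5 protease zymogens that Ctsc activates in neutrophils and cytotoxic lymphocytes passed the filter. For the lists that follow, the share of all genes called was 11.9% under S6K1i-HDL, 1.64% under mTORi-HDL and 0.0192% under TRAF6i-HDL, and 1 call in a list of 5 to 10 genes under S6K1i-HDL is near that background. Among cathepsin inhibitors, 1 of 5 tested genes was called, and this was the cytosolic cystatin Cstb, which fell under S6K1i-HDL to 156 ± 39.4 CPM (n = 9), against 245 ± 66.5 CPM in PBS (n = 10; log2 fold change -0.66, edgeR adjusted p = 0.00747).

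Among 9 genes of transport to lysosomes, the adaptor Gga2 fell under mTORi-HDL (-0.91, edgeR adjusted p = 0.00825) and under S6K1i-HDL (-0.66, adjusted p = 0.0265), and the related adaptor Gga1 rose under S6K1i-HDL (1.00, adjusted p = 0.0150). The mannose 6-phosphate receptor Igf2r was at 0.25 ± 0.13 under mTORi-HDL and 0.16 ± 0.13 under S6K1i-HDL, and was not called. Legumain (Lgmn), a lysosomal protease that processes several cathepsins, was the 1 of 9 other peptidases and Ctsa partners called, and it fell under S6K1i-HDL to 580 ± 117 CPM, against 904 ± 299 CPM in PBS (-0.64, edgeR adjusted p = 0.0233). Among 17 other lysosomal genes, the glycosidase genes Gla (-0.59, adjusted p = 0.0239) and Gusb (-0.68, adjusted p = 0.0232) fell under mTORi-HDL by edgeR. Under S6K1i-HDL the membrane protein Cd63 fell (-0.61, edgeR adjusted p = 0.0277) and the mannosidase Man2b1 rose (0.53, adjusted p = 0.0433).

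Of 8 regulators of lysosomal genes, 2 rose under S6K1i-HDL, where 5.46% of all genes were called higher. Spi1, which encodes PU.1, was at 39.5 ± 10.1 CPM in S6K1i-HDL (n = 9) and 20.2 ± 7.21 CPM in PBS (n = 10), with all 9 libraries above the PBS mean (0.91, edgeR adjusted p = 0.000761). Nfatc1, a driver of Ctsk in osteoclasts, was at 95.8 ± 16.5 CPM in S6K1i-HDL and 63.1 ± 20.1 CPM in PBS (0.54, adjusted p = 0.0259 by edgeR). Tfeb was low in all groups and not called, at 10.6 ± 3.34 CPM in S6K1i-HDL and 5.52 ± 3.86 CPM in PBS (0.74 ± 0.29, adjusted p = 0.0838), and 7.31 ± 1.97 CPM in mTORi-HDL (0.21 ± 0.29, adjusted p = 0.746). None of 7 class II presentation genes was called in any comparison with PBS by edgeR (at an unadjusted p under 0.05, 1 was lower under mTORi-HDL), and the most abundant, the invariant chain Cd74, was at 371 ± 155 CPM in mTORi-HDL, against 772 ± 1010 CPM in PBS (-1.09 ± 0.44, adjusted p = 0.182). Of 10 matrix genes whose products cathepsins can cut, 1 was called, the perlecan gene Hspg2, which rose under S6K1i-HDL (1.01, adjusted p = 0.0243 by edgeR). Under TRAF6i-HDL edgeR called 0 genes of these lists. The lists held as tested genes 2 other cathepsins, 5 inhibitors, 9 transport genes, 9 other peptidases and Ctsa partners, and 8 regulators. They also held 7 class II genes, 10 matrix genes and 17 other lysosomal genes. At an unadjusted p under 0.05, 5 genes of all lists were lower and 4 higher under TRAF6i-HDL (4.92% and 6.2% of all genes), 14 lower and 4 higher under mTORi-HDL (8.46% and 9.12%), and 8 lower and 9 higher under S6K1i-HDL (13.9% and 13.2%).

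Replicates 5 to 10 of mTORi-HDL stand in a later stretch of the series than replicates 1 to 4, as do S6K1i-HDL replicates 7 to 9 relative to 1 to 6, and the members were compared between these sets. Ctsl averaged 1980 ± 859 CPM in mTORi-HDL replicates 5 to 10 (n = 6) and 6638 ± 1935 CPM in replicates 1 to 4 (n = 4), and the values of the 2 sets did not overlap. The difference of -1.74 ± 0.48 on the log2 scale was not called (edgeR adjusted p = 0.118), in a comparison that called 0.355% of all genes. Against PBS, replicates 5 to 10 gave Ctsl -2.01 (adjusted p = 0.0110) and called 2 members, Ctsb and Ctsl, and replicates 1 to 4 gave 0 calls. The sets differ in size, and the share of all genes that each called against PBS is not given here. These counts therefore do not show that the sets differ. Ctsh, at -0.58 (0.0691) in replicates 5 to 10 and -0.61 (0.140) in replicates 1 to 4, was called in neither set. Ctss averaged 4428 ± 670 CPM in S6K1i-HDL replicates 7 to 9 (n = 3) and 2597 ± 598 CPM in replicates 1 to 6 (n = 6; 0.77 ± 0.43, adjusted p = 0.835 by edgeR). Against PBS, Ctss was at -0.88 (adjusted p = 0.469) in replicates 7 to 9 and -1.65 (adjusted p = 0.00156) in replicates 1 to 6. The labels do not say what sets these replicates apart.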

How the data were processed

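The authors deposited 1 table of raw counts for each of 39 libraries, with 24062 mouse gene symbols and 5 closing lines on unassigned reads, which were left out. Per the submitters' processing notes, TopHat2 2.1.0, Bowtie2 2.2.8 and HTSeq 0.6.1 were used and the build was hg19, a human assembly, although the symbols are those of mouse genes; the strand setting is not given in the sources used here. Per the labels' protocols, RNA from 6 µm sections was amplified (Ovation Pico WTA) before sequencing. In GENCODE vM21, exons of other genes overlap those of Ctsa (Neurl2 and Pltp), Ctsb (Fdft1), Ctsd (Gm49369), Ctsl (Gm47123) and Ctsz (Nelfcd), and reads from such stretches cannot be told apart without strand. Gm49369 lies on the same strand as Ctsd, so strand would not separate their shared stretches either.

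Counts were analysed with edgeR 4.0.16 in R 4.3.3: filterByExpr over the 4 groups (10411 genes), TMM scaling, 1 quasi-likelihood fit of all 39 libraries with group as the term, 6 comparisons, and Benjamini-Hochberg adjustment over all genes. SE is the log2 fold change divided by the root of F. CPM values are TMM-scaled, and log2 CPM used a prior count of 2. Correlations used permutation tests with 100000 resamples, where the smallest p is 1e-05. The method was tested on simulated data. Alternatives were DESeq2 1.42.0 (size factors, and Wald test), no filter or a stricter one (5 CPM in 9 libraries), a replicate block, only the 2 groups compared, detected genes or the log2 Rn45s share as covariates, the 3 libraries under 200000 counts left out, an adjusted p under 0.2, the replicate sets listed apart, and each library left out in turn. Depth sets precision, and amplified reads are not independent molecules, so counting error is a lower limit. No 2 libraries of the same group agreed within sampling noise.

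The members, gene lists and tests were chosen with earlier results of these data known. Genes named were the 9 members, up to 5 list members past the threshold in a comparison with PBS by smallest p, the most abundant member of a list with none, the 3 genes most like each member, and macrophage markers; Igf2r and Tfeb were named after their values were seen, and 1 gene that the rule names is not reported here. Promoter sequences are RefSeq's for GRCm38.p6.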

Additional observations from a re-analysis of the deposited data

Results flagged for a closer look

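In 9 of 36 sets of member values, a library lay farther from the rest of its group than Dixon's 95% limit allows. For a single set, chance gives about 1 in 20. The 36 sets are 9 genes in the same 4 groups of libraries, so they are not independent and 1 library can be flagged several times. PBS replicate 9 (50091 counts in genes) was the low value in 5, with log2 CPM of 10.73 for Ctsb, 10.18 for Ctsd, 5.68 for Ctsh, 4.70 for Ctsk and 6.26 for Ctsz. S6K1i-HDL replicate 1 (118527 counts) was low for Ctsh at 6.00 and for Ctsz at 7.16, and TRAF6i-HDL replicate 7 (66602 counts) was low for Ctsh at 6.10. These are the 3 libraries under 200000 counts. The ninth was mTORi-HDL replicate 8, low for Ctss at 10.76, a library of 2828319 counts with the highest Rn45s share of its group (32.5%).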

How the results depend on the processing

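Counts of called members are given for mTORi-HDL and S6K1i-HDL against PBS, then TRAF6i-HDL against mTORi-HDL, TRAF6i-HDL against S6K1i-HDL and mTORi-HDL against S6K1i-HDL (2, 2, 1, 2 and 0 as reported). They were 2, 2, 4, 2 and 2 with DESeq2 size factors, 2, 4, 5, 3 and 2 with the DESeq2 Wald test, 1, 2, 1, 1 and 1 without a filter, 2, 2, 2, 2 and 0 with the stricter filter, and 1, 2, 3, 4 and 3 with only the 2 groups compared. They were 3, 3, 4, 1 and 2 with detected genes as a covariate, 0, 0, 3, 1 and 1 with the Rn45s share, 2, 5, 4, 2 and 2 without the shallow libraries, and 3, 6, 6, 4 and 3 at an adjusted p under 0.2. With single libraries left out they ranged from 0 to 2, 1 to 4, 0 to 4, 0 to 3 and 0 to 2. Calls among all genes then ranged from 73 to 435, 790 to 1496, 208 to 388, 56 to 259 and 463 to 824. Without the shallow libraries the share of all genes called was 11.9%, 3.17%, 1.6% and 6.45% in the last 4 comparisons. Shares for the other alternatives are not given here, so changes in member counts cannot be told apart from changes among all genes. TRAF6i-HDL against PBS gave 0 in every setting run.

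The replicate block gave 1, 2, 1, 1 and 1 (Ctsb under mTORi-HDL at -0.97, adjusted p = 0.0532), but same-numbered libraries did not deviate together (median r at most 0.05 per comparison, at most 2 of 10 pairs over 0.1), so the numbers do not pair libraries. mTORi-HDL replicates 1 to 4 gave 0 calls against PBS, and replicates 5 to 10 gave 2 against PBS, with TRAF6i-HDL against them giving 2 and they against S6K1i-HDL 1. S6K1i-HDL replicates 7 to 9 gave 0 against PBS, and TRAF6i-HDL against them 0. Such sets are smaller than whole groups, and their shares of all genes called are not given, so fewer calls do not show a difference.

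Signs turned only for values not called. With the Rn45s covariate, log2 fold changes against PBS became 0.25 (Ctsb), 0.023 (Ctsc), 0.091 (Ctsh) and 0.082 (Ctss) under TRAF6i-HDL, -0.29 (Ctsa), 0.072 (Ctsk) and 0.18 (Ctss) under mTORi-HDL, and 0.27 (Ctsb), 0.16 (Ctsc) and 0.26 (Ctsl) under S6K1i-HDL. Under mTORi-HDL, Ctsa was -0.0020 with DESeq2 size factors, -0.0034 with the Wald test, -0.19 with detected genes, -0.018 without the shallow libraries, -0.0072 in replicates 5 to 10 and from -0.039 to 0.11 with 1 library left out. Ctsk was 0.019 without a filter, 0.0067 with detected genes, 0.33 in replicates 1 to 4 and from -0.098 to 0.057 with 1 library left out. Under TRAF6i-HDL, with 1 library left out, Ctsh ranged from -0.079 to 0.050 and Ctsl from -0.12 to 0.43. The cause was not tested. Genes called against PBS ranged from 73 to 435 (mTORi-HDL) and 790 to 1496 (S6K1i-HDL) with single libraries left out, from 171 and 1242. The shallow libraries limit the less abundant members most: PBS replicate 9 held 2 reads of Ctsk.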
